A study of Mus musculus with 17 samples.

Results

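The genes described are 40 genes of DNA replication and cell division, 17 that act in S phase and 23 that act in mitosis or are read as marks of dividing cells. A gene entered through the array probe sets that the platform annotation gives to its symbol alone. By that rule 39 of the 40 were measured, all 17 S-phase genes and 22 mitotic genes, out of 18193 genes with a probe set of their own. Ccnb1 had no such probe set. All 39 passed the filter on dim signals, which 14504 genes passed. Of the 39 members 36 lay above its cut on all 17 arrays, and Hells was the only one at the floor on any array.

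The arrays hold RNA of mouse skeletal stem cells (mSSC) and of their progeny, the bone, cartilage and stroma progenitors (mBCSP), sorted from the femurs of female C57BL/6 mice. According to the methods the mice were ovariectomized (OVX) or sham operated at 8 weeks of age and received a pin-stabilized femoral fracture 6 weeks later, at 14 weeks, and the callus was taken on day 7. Each array is named by the code that opens its title. Callus came from OVX mice with a 0.18 mg 17β-estradiol pellet placed at ovariectomy (OVX + E2, arrays EB and ES), from OVX mice (OB and OS) and from sham mice (SB, SS, SIB and SIS). A further 2 callus arrays are OVX in the title and sham in the treatment tag (OIB and OIS), and 2 callus arrays have no surgery stated (SI and BI). Uninjured bone came from OVX mice (OUB and OUS) and from sham mice (BU, SUS and SU). No label says whether arrays of a group came from separate mice, or how many mice were pooled, so p-values measure only the spread between these arrays, which may be technical. The titles take 3 forms: two-letter codes (the 6 arrays of OVX + E2, OVX and sham callus SB and SS), three-letter codes (7 arrays) and titles that spell out injured or uninjured in words (BU, SI, BI and SU). Both callus and uninjured arrays occur only in the three-letter and word sets, so injury was tested in those 11 arrays.

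Cells were stained for CD45 and Ter119, marks of blood cells that skeletal stem cells lack. Ptprc, the gene of CD45, had all the same a log2 signal of 6.58 to 13.53 on the 12 callus arrays and of 13.79 to 14.74 on the 5 uninjured arrays. A list of 11 skeletal progenitor genes averaged 11.84 to 12.44 on the callus arrays, against 8.28 to 11.16 on the uninjured arrays. The callus array BI stood apart: its highest rank correlation with any other array was 0.841, with the uninjured array OUS. Signal on an array does not tell fewer dividing cells from less transcript in each cell.

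A cell that enters S phase loads the MCM helicase at replication origins with CDC6 and CDT1, is held from loading it again by geminin, and is driven forward by cyclin E and the E2F factors. In mitosis CDK1 with its cyclins, the aurora and polo kinases, the spindle checkpoint kinases and a set of kinesins build the spindle and part the chromosomes. Skeletal stem cells of adult bone divide rarely and expand after a fracture, while blood progenitors of the marrow divide throughout life.

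S-phase and mitotic genes are known for different promoter motifs, so those of the members were searched. RefSeq start sites in GRCm38.p6 were found for 32 of the 39 measured members, and the window from 250 bases before the start to 50 bases after it was searched on both strands. The E2F motif, searched as TTTGGCGC, TTTCGCGC, TTTCCCGC or TTTGCCGC, is the site of the factors that open S phase. It was in 7 of 14 S-phase promoters (50%) and 1 of 18 mitotic promoters (5.56%), against 449 of the 11618 tested genes with a window (3.86%). The CHR motif TTTGAA, the element through which the DREAM and MuvB complexes act on mitotic genes, was in 1 of 14 S-phase promoters (7.14%) and 14 of 18 mitotic promoters (77.8%), against 12.2% of the tested genes. Within 50 bases of the start on either side CHR lay in 0 of 14 S-phase and 13 of 18 mitotic promoters (72.2%), against 2.99% of the tested genes. The CCAAT box, the NF-Y site, was in 8 of 14 S-phase (57.1%) and 16 of 18 mitotic promoters (88.9%), against 38.1%. A CHR and a reversed CCAAT box can share a letter, as in Cdca8. A match is a description of the sequence and not of binding. The promoters of the S-phase members Mcm3, Hells and Rrm1 and of the mitotic members Bub1, Plk1 and Cdca8, the 3 of each kind with the smallest p in the injury comparison among those with a window, are shown from 100 bases before the start to 30 bases after it, with the 3 motifs in capitals on either strand.
Mcm3 (chr1:20820283-20820412, GRCm38.p6, minus strand): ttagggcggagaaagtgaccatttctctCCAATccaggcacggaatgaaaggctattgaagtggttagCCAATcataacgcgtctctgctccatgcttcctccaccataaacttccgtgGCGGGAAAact
Hells (chr19:38930890-38931019, GRCm38.p6, plus strand): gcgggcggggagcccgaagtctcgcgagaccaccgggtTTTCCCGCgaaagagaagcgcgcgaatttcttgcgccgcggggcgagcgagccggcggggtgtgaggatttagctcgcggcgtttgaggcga
Rrm1 (chr7:102441595-102441724, GRCm38.p6, plus strand): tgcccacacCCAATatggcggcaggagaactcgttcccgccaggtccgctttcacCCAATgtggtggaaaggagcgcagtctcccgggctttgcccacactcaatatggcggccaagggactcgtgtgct
Bub1 (chr2:127831830-127831959, GRCm38.p6, minus strand): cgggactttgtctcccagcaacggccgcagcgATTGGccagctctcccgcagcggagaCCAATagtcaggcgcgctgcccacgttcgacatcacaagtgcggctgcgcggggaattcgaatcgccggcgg
Plk1 (chr7:122159335-122159464, GRCm38.p6, plus strand): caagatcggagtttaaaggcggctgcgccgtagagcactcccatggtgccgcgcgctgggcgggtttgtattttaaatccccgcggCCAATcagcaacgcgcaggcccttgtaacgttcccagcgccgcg
Cdca8 (chr4:124936888-124937017, GRCm38.p6, minus strand): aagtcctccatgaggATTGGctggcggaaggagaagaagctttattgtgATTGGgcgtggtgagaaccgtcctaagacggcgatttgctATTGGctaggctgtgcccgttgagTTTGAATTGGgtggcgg
Mcm3 (chr1, minus strand) has an E2F match at position 20 from the start and Hells (chr19, plus strand) has one at -62. Rrm1 (chr7, plus strand) has no E2F or CHR match, and CCAAT boxes at -91 and -45. Bub1 (chr2, minus strand) has no E2F or CHR match, and CCAAT boxes at -68 and -42. Plk1 (chr7, plus strand) has a CCAAT box at -14, and its CHR begins at 31, just past the stretch shown. Cdca8 (chr4, minus strand) has a CHR at 14 that runs into the reverse of a CCAAT box at 19.

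**Figure D1:**
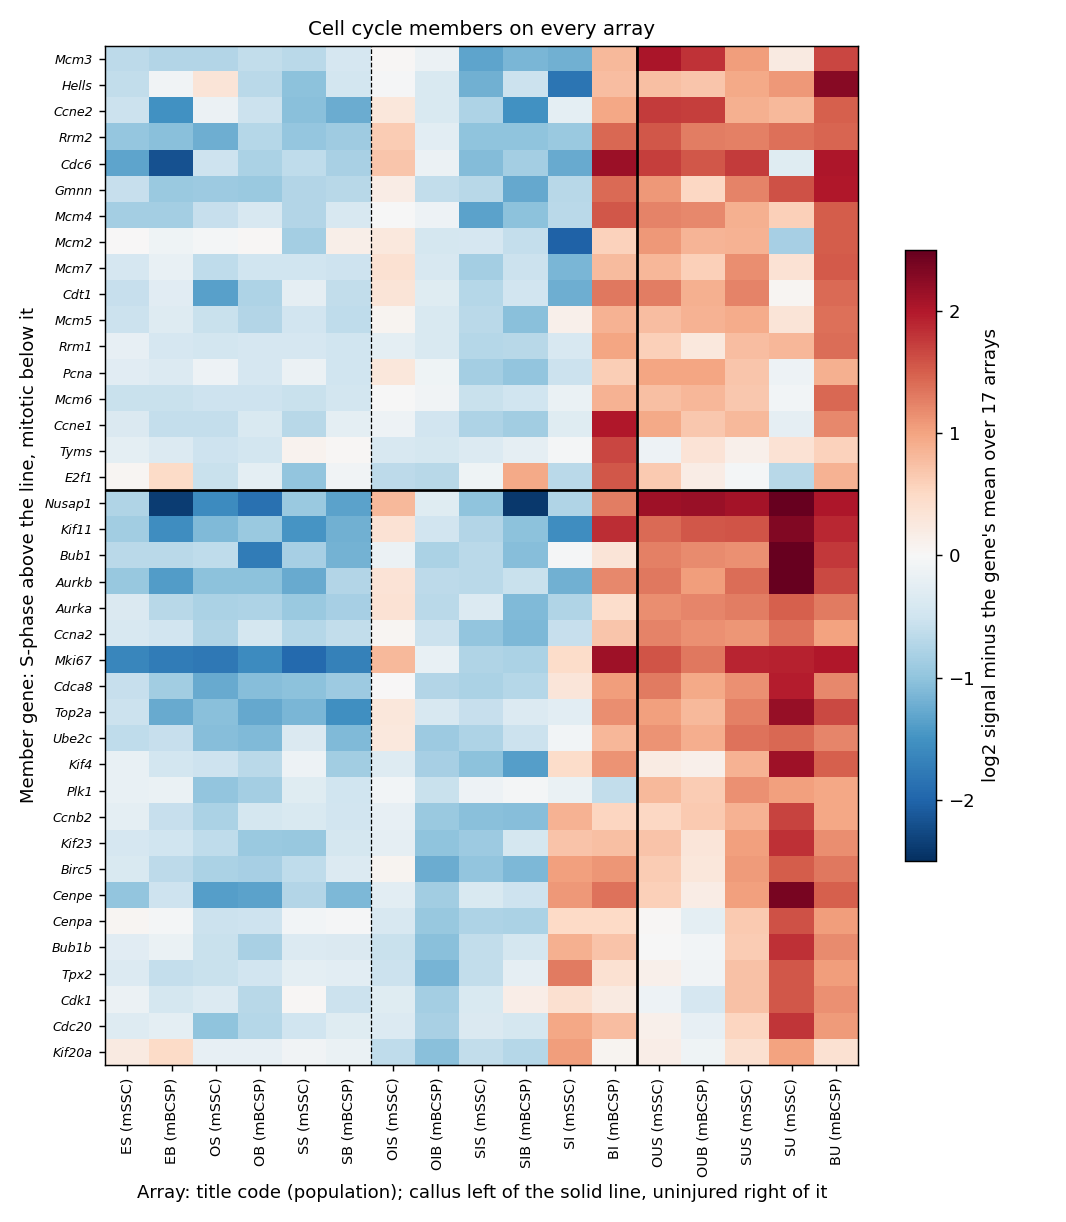
Log2 signal of each of the 39 members minus its own mean over 17 arrays (colour scale), with the arrays in columns, named by title code and population, and the S-phase genes above the mitotic genes. Callus arrays lie left of the solid line (two-letter titles left of the dashed line) and uninjured arrays right of it. The callus array BI is coloured like the uninjured arrays for most genes, Plk1 excepted, and SU is the highest uninjured array for 20 of 22 mitotic genes and 0 of 17 S-phase genes.

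Cell cycle genes were lower in callus than in uninjured bone. All 39 members had a negative log2 fold change, and 28 passed the test in that direction (limma, adjusted p under 0.05 over 14504 genes), while 12.3% of the tested genes were called lower in callus and 15.2% higher. Of the S-phase genes 9 of 17 were called, with a median log2 fold change of -1.23 and a range of -1.93 to -0.21. Of the mitotic genes 19 of 22 were called, with a median of -1.17 and a range of -2.58 to -0.57. The median of all tested genes was 0.02. Whether S-phase and mitotic genes differed in this was not tested.

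Mcm3, a subunit of the replicative helicase, was the S-phase gene of smallest p. Its log2 signal on the 6 callus arrays ran from 9.86 to 11.99 with a median of 10.55, against 13.23 (OUS), 12.99 (OUB), 12.24 (SUS), 11.42 (SU) and 12.85 (BU) on uninjured arrays, a log2 fold change of -1.93 (SE 0.45, adjusted p = 0.00945). The groups met only through BI, the callus array at 11.99. The other Mcm3 probe sets had smaller changes, at -0.774, -0.870, -1.075 and -0.784. Of these only the one at -1.075 was called in the fit over all probe sets with a single symbol. Hells, a chromatin remodeller of the helicase family that is high in dividing cells, ran from 5.95 to 8.53 on callus arrays (median 7.30), against 8.51, 8.46, 8.72, 8.86 and 10.05 on OUS, OUB, SUS, SU and BU, a log2 fold change of -1.75 (SE 0.44, adjusted p = 0.0137). The callus array SI was at the floor of 5.95 for Hells, and BI was the only callus array level with uninjured bone. Ccne2, a cyclin E, ran from 8.60 to 11.08 in callus (median 9.81), against 11.86, 11.84, 11.01, 10.92 and 11.61 on the same uninjured arrays, a log2 fold change of -1.59 (SE 0.43, adjusted p = 0.0189). Again only BI reached the uninjured range.

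The other helicase subunits split at the threshold. Mcm4 (-1.40), Mcm5 (-1.03) and Mcm7 (-1.23) were called lower in callus. Mcm6 stood at -0.83 (adjusted p = 0.0628) and was not called. Mcm2 ran from 8.57 to 11.17 on callus arrays (median 10.15), against 11.66, 11.43, 11.45, 9.75 and 12.10 on OUS, OUB, SUS, SU and BU, a log2 fold change of -1.25 (SE 0.52, adjusted p = 0.101). Both low values came from word arrays of mSSCs, SI at 8.57 in callus and SU at 9.75 in uninjured bone, and the groups overlapped. Pcna, the sliding clamp of the replicative polymerases, ran from 12.17 to 13.77 in callus (median 12.83), against 14.14, 14.14, 13.85, 13.03 and 14.04 on uninjured arrays, a log2 fold change of -0.98 (SE 0.34, adjusted p = 0.0538). The callus arrays BI (13.77), OIS (13.44) and OIB (13.04) lay above the uninjured array SU (13.03), and below the other uninjured arrays.

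Among licensing and nucleotide genes, geminin (Gmnn, -1.52) and both subunits of ribonucleotide reductase (Rrm1, -1.01, and Rrm2, -1.59) were called lower in callus. The loading factors Cdc6 (-1.55, adjusted p = 0.118) and Cdt1 (-1.23, adjusted p = 0.0760) and the other cyclin E, Ccne1 (-0.81, adjusted p = 0.258), were not called. Smallest of all were Tyms, thymidylate synthase, at -0.23 (95% interval -0.93 to 0.47) and E2f1 at -0.21 (-1.22 to 0.81). On every callus array but BI (9.34) Tyms lay between 7.15 and 7.75, against 7.54 to 8.24 on the uninjured arrays. The other Tyms probe sets, all dimmer, had larger changes of -0.47, -0.81 and -0.65, and none was called.

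Bub1, a kinase of the spindle checkpoint, had the smallest p of all members. It ran from 8.76 to 10.15 on the 6 callus arrays (median 9.41), against 11.09 (OUS), 11 (OUB), 10.96 (SUS), 12.59 (SU) and 11.60 (BU) in uninjured bone, a log2 fold change of -1.92 (SE 0.26, 3.78-fold lower, adjusted p = 6.09e-04). The groups did not overlap even with BI. Plk1, the polo kinase of mitotic entry, ran from 9.97 to 10.54 in callus (median 10.43), against 11.40, 11.21, 11.72, 11.60 and 11.55 on OUS, OUB, SUS, SU and BU, a log2 fold change of -1.16 (SE 0.20, adjusted p = 0.00227). BI, high for most members, was the lowest of these 6 callus arrays for Plk1. Cdca8, a subunit of the chromosomal passenger complex, ran from 11.70 to 13.52 in callus (median 12.14), against 13.79, 13.43, 13.63, 14.44 and 13.68 in uninjured bone, a log2 fold change of -1.37 (SE 0.27, adjusted p = 0.00375). Only BI at 13.52 passed the lowest uninjured array.

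Mki67, the proliferation antigen Ki-67, ran from 11.30 to 14.21 in callus (median 12.24), against 13.67, 13.42, 14, 14.03 and 14.09 in uninjured bone, a log2 fold change of -1.43 (SE 0.42, adjusted p = 0.0281). BI had the highest Mki67 signal of all 17 arrays. Top2a, the topoisomerase that untangles sister chromosomes, ran from 10.29 to 12.03 in callus (median 10.56), against 11.88, 11.67, 12.13, 13.04 and 12.52 in uninjured bone, a log2 fold change of -1.36 (SE 0.32, adjusted p = 0.00936). The 6 callus arrays of two-letter titles, which did not enter this fit, were at 10.16 to 10.53 for Mki67, below all 6, and at 9.32 to 10.33 for Top2a, where they met the lowest of the 6 (10.29).

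The largest changes of all members were those of the spindle proteins Nusap1 (-2.58, SE 0.58) and Kif11 (-2.01, SE 0.57), a motor that pushes the spindle poles apart. Aurkb (-1.82), the enzyme of the passenger complex, Aurka (-1.60), a kinase of the spindle poles, and Ccna2 (-1.56), cyclin A, were also called, and the other called mitotic genes were Ube2c, Kif4, Ccnb2, Kif23, Birc5, Cenpe, Cenpa, Bub1b and Cdc20 (-1.36 to -0.58). Cdk1, the kinase of mitotic entry, stood at -0.62 (adjusted p = 0.115), Tpx2, a spindle assembly factor, at -0.70 (adjusted p = 0.0649) and Kif20a, a kinesin of cytokinesis, at -0.57 (adjusted p = 0.0764), and none of these was called. Of the 39 measured members 27 had several probe sets, and 45 of the 50 other probe sets were also lower in callus, 16 of them called in a fit over all probe sets with a single symbol. Of the rest 2 never left the floor, and 3 dim probe sets, of Rrm1, Top2a and Tpx2, stood at 0.03, 0.08 and 0.09.

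**Figure D2:**
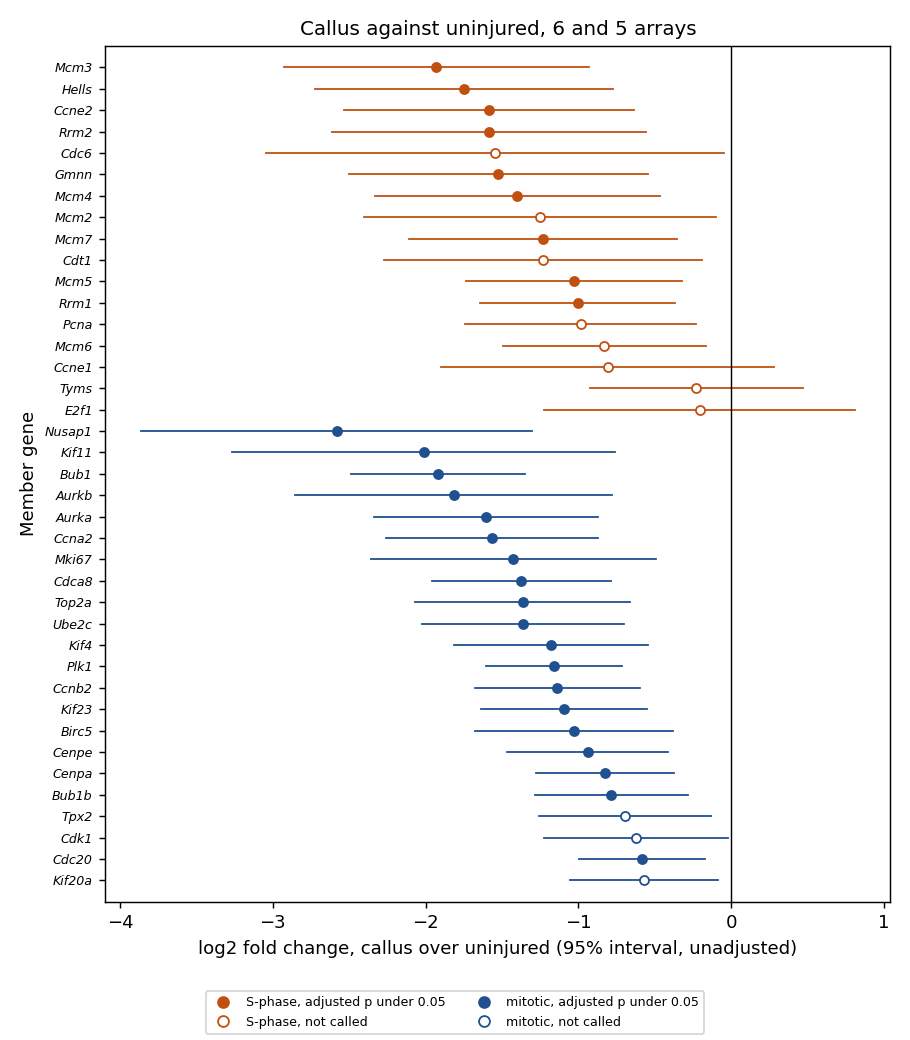
Log2 fold change of callus (6 arrays) over uninjured bone (5 arrays) for each measured member, with its 95% interval, S-phase genes above and mitotic genes below, each ordered by size. Filled points passed limma's test at an adjusted p under 0.05 (28 of 39), and every point lies left of 0.

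A single array changed how cleanly the groups parted. With all 11 arrays 6 of 39 members lay lower on every callus array than on any uninjured array (Ccna2, Bub1, Aurka, Plk1, Nusap1 and Ube2c, all mitotic), where 7.96% of the tested genes did. Without BI this held for 19 members, 8 of 17 S-phase and 11 of 22 mitotic, where 12.6% of the tested genes did. It held for the same 19 when the two-letter callus arrays were added, a count not set against all tested genes. Without BI 32 members were called lower, where 13.9% of the tested genes were. Without SI, the other callus array of unstated surgery, 9 were called (5.65% of the tested genes), and without the uninjured sham array SUS 16 (8.75%). Without SI Mcm3 (adjusted p = 0.0688), Hells (adjusted p = 0.0565) and Ccne2 (adjusted p = 0.110) were not called, nor was Ccne2 without OUB (adjusted p = 0.0512). Mki67 lost its call without any 1 of OUB, OUS, SI, SIS and SUS (adjusted p = 0.0508 to 0.133). Pcna was called without any 1 of OIS, BI and SU (adjusted p = 0.0212 to 0.0267), and Mcm2 without OIS (adjusted p = 0.0390).

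Single arrays matched for title form and population all leaned the same way. Only SIS and SUS are also matched for surgery by their labels, as those of OIS and OIB conflict and SI and BI state none. SIS against SUS (sham mSSC) had 17 of 17 S-phase and 22 of 22 mitotic genes lower in callus, with medians of -1.67 and -1.87. Between OIS and OUS (mSSC) and between OIB and OUB (mBCSP) all 39 were lower too, with S-phase medians of -0.88 and -1.15 and mitotic medians of -0.79 and -1.42. Against SU the callus array SI had 16 of 17 S-phase and 21 of 22 mitotic genes lower, with medians of -1.18 and -1.38. BI against BU had 12 of 17 and 21 of 22 lower, with medians of only -0.41 and -0.42. Of all tested genes 44.2% to 54.7% were lower in callus in these 5 differences. Each is a difference of 1 array from another and has no replicate.

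The injury response did not pass a test of its difference between populations for any member (smallest adjusted p = 0.954; 0 of 14504 genes, 0%, with 459 at an unadjusted p under 0.05). With mSSC arrays alone 26 members were called lower in callus, where 11% of the tested genes were, and with mBCSP arrays alone 0, where 0% were. Between the title forms 0.889% of the tested genes differed in their injury response and no member passed (smallest adjusted p = 0.299), though 18 did without OIS, where 37.5% of the tested genes did. The median difference, word minus three-letter, was 0.88 for the S-phase genes and 0.27 for the mitotic genes. Without BI these were 0.07 and -0.12. The 4 word arrays alone called 1 member lower (2.89% of the tested genes) and the 7 three-letter arrays 31 (9.56%). Between sham arrays alone, whose labels are settled, in the fit of all 17 arrays, 25 members were called lower in sham callus than in sham uninjured bone (10.1% of the tested genes), with medians of -1.97 and -1.80.

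The rest of the pathway gave the same direction. Of 26 other measured replication genes all were lower in callus and 11 were called (median -0.96), among them Cdc45 (-1.33), a part of the active helicase, Mcm10 (-2.32), which helps to start it, Dbf4 (-1.60), the partner of its activating kinase, and the polymerase genes Pola1 (-1.73) and Prim1 (-1.45). Of 33 other mitosis genes all were lower and 28 were called (median -1.38), such as the kinetochore genes Spc25 (-1.80) and Nuf2 (-1.66), the checkpoint gene Mad2l1 (-1.51), the spindle gene Hmmr (-1.72) and the kinesin Kif18a (-2.48). Of 16 E2F and DREAM regulators 8 were called lower, with Rbl1 (-2.09) and Rbl2 (-1.32), pocket proteins that hold E2F genes silent, and Foxm1 (-0.95), an activator of mitotic genes, among them, and 1 was called higher, E2f5 (1.15), a repressing E2F.

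Genes of the G1 decision were mixed. Of 11 genes of G1 control, which are cyclins D, CDKs, CDC25 phosphatases, Myc and Mycn, 4 were called lower, Cdc25a (-1.23), Cdc25b (-2.32), Ccnd3 (-1.30) and Cdk2 (-1.18), and none higher. Ccnd1, the cyclin D1 gene, stood at 0.57 (adjusted p = 0.254). Of 17 CDK inhibitor and quiescence genes 5 were called higher in callus, with Cdkn1c (p57) at 4.13 (SE 0.28, adjusted p = 5.43e-05), Cdkn2b (p15) at 2.62, Cdkn1a (p21) at 2.0, the stress gene Gadd45g at 1.60 and Foxo1, a transcription factor of resting cells, at 1.32. The other 5 called were lower, Ccng2 (-1.92), Cdkn2d (-1.15), Cdkn1b (p27, -1.20), Gadd45a (-2.0) and Cdkn2c (-1.07).

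Between callus and uninjured bone, blood lineage signal moved with the members on the same arrays. Of 10 pan-leukocyte genes all were lower in callus and 9 were called (median -2.38), Ptprc by -2.93 (SE 0.71, adjusted p = 0.0106). Macrophage genes were called lower for 10 of 15 (median -2.23), neutrophil genes for 5 of 11 (-1.41), B cell genes for 3 of 11 (-1.56), and erythroid genes for 0 of 12 (-1.53) and platelet genes for 0 of 6 (-0.80), every one of them below 0. The pan-leukocyte mean was 9.47 to 12.24 on the 6 callus arrays of the test and 12.72 to 13.54 on the uninjured arrays, with no overlap. With that mean as a covariate, a setting chosen after seeing the data, 0 members were called lower, as was 0% of the tested genes (4 were called higher), and the medians were -0.01 (S-phase) and -0.57 (mitotic). With the mean of all 6 blood lists 2 were called (2.53% of the tested genes), with medians of -0.16 and -0.83. With the erythroid mean, also chosen after seeing the data, 24 members were called (11% of the tested genes). On these callus arrays the macrophage and neutrophil gene Lyz2 was at 12.54 to 14.94, the neutrophil gene Camp at 12.30 to 15.12 and the globin gene Hbb-b2 at 13.09 to 14.97, against 14.72 to 15.25, 14.43 to 15.29 and 12.74 to 15.65 on the uninjured arrays. Injury and blood signal cannot be told apart for these genes in this design.

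Across arrays the S-phase mean had its highest Pearson r with the B cell list and the mitotic mean with the pan-leukocyte list. By Spearman the S-phase mean stood highest with the macrophage list, at 0.74 against 0.73 for the B cell list. Over 17 arrays, which fall into callus and uninjured groups and share title sets, the S-phase mean had a Pearson r of 0.95 (Spearman 0.73) with the B cell mean, 0.84 (0.61) with the erythroid mean and 0.82 (0.68) with the pan-leukocyte mean. The mitotic mean had 0.92 (0.89) with the pan-leukocyte mean, 0.76 (0.76) with the B cell mean and 0.58 (0.58) with the erythroid mean. With the skeletal progenitor mean both ran the other way, at -0.69 (-0.66) and -0.89 (-0.82). The mitotic and S-phase means themselves correlated at 0.82 (0.64) over the 17 arrays. They correlated at 0.75 (0.11) over the 12 callus arrays and at 0.22 (-0.15) without BI, and at -0.00 (-0.14) over the 6 two-letter arrays and 0.96 (0.82) over the 7 three-letter arrays. Over the 12 callus arrays the S-phase mean had 0.94 (0.29) with the B cell mean, and 0.68 (0.07) without BI. There the mitotic mean had 0.83 (0.72) with the pan-leukocyte mean, and 0.83 (0.65) without BI. Over the 5 uninjured arrays the mitotic mean had 0.89 (0.90) with the pan-leukocyte mean, -0.72 (-0.40) with the B cell mean and -0.79 (0.00) with the erythroid mean. The S-phase mean had -0.33 (-0.30), 0.80 (0.70) and 0.85 (0.90) with these lists, and -0.47 (-0.10) with the mitotic mean. Between single members over 17 arrays the median r was 0.84 within the S-phase genes, 0.84 within the mitotic genes and 0.67 across them.

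**Figure D3:**
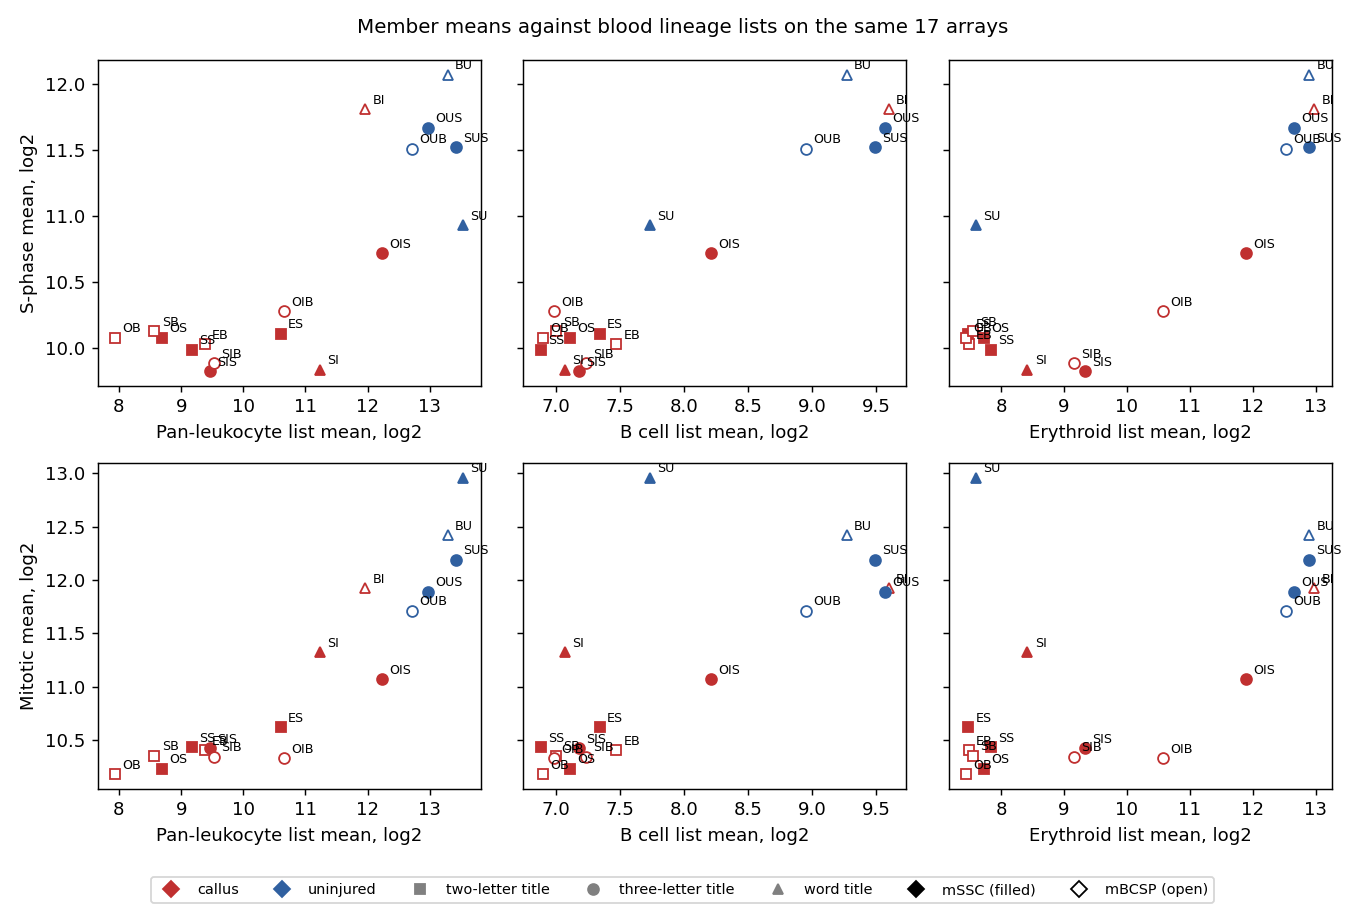
Mean log2 signal of the 17 S-phase members (upper row) and the 22 mitotic members (lower row) against the mean log2 signal of the pan-leukocyte, B cell and erythroid lists, 1 point an array, with callus in red, uninjured in blue, mSSC filled and mBCSP open. SU has the highest mitotic mean (12.96) and pan-leukocyte mean (13.54) beside a low erythroid mean (7.60), where its S-phase mean is 10.93.

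The arrays that part the S-phase from the mitotic genes are the mSSC arrays of the word set. On SI and SU the mitotic mean exceeded the S-phase mean by 1.48 and 2.02, against 0.06 to 0.68 on the other 15 arrays. SU was the highest of the 5 uninjured arrays for 20 of 22 mitotic genes and for 0 of 17 S-phase genes, and the lowest for 12 of the 17. SI was the lowest of the 6 callus arrays for 5 S-phase genes and 2 mitotic genes, and the highest for 7 mitotic genes. Tpx2 was at 12.35 on SI and 12.61 on SU, against 9.89 to 12.09 on the others, while Mcm2 had 8.57 on SI and 9.75 on SU. Their mBCSP partners BI and BU had S-phase means of 11.81 and 12.07. The erythroid mean was 8.42 on SI and 7.60 on SU, against 12.98 on BI and 12.90 on BU, and Alas2, the erythroid heme enzyme, was at 9.77 and 7.68, against 13.79 and 13.91. The B cell mean differed likewise, at 7.07 and 7.73 against 9.60 and 9.27. Their part in the S-phase values was not tested.

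**Figure D4:**
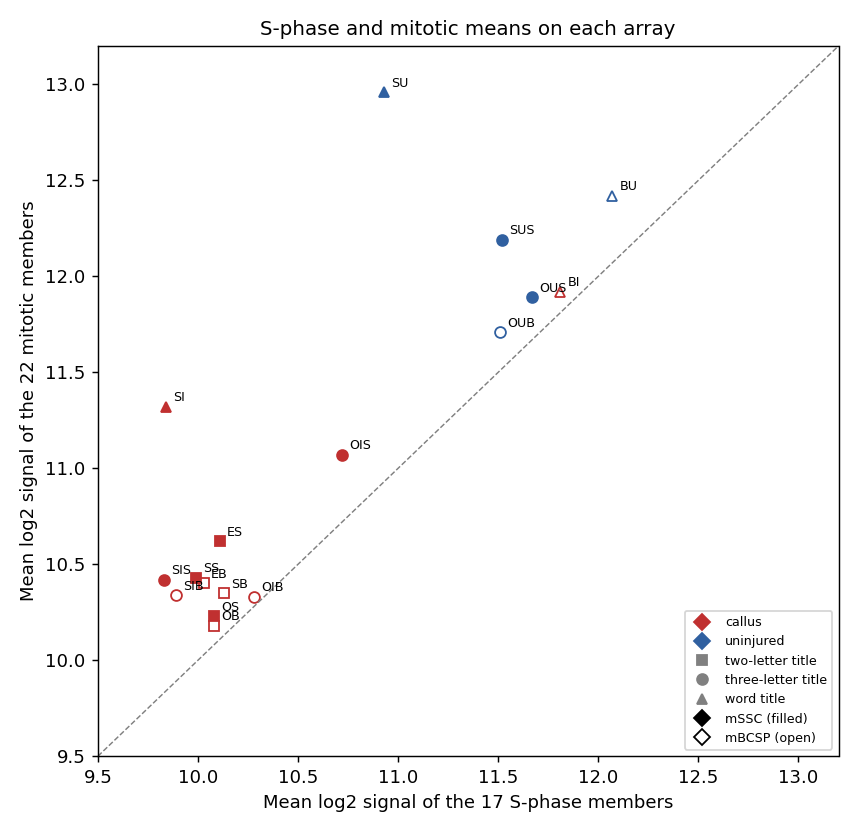
Mean log2 signal of the 22 mitotic members against that of the 17 S-phase members, 1 point an array, with callus in red, uninjured in blue, mSSC filled and mBCSP open, and marker shape for title form. The dashed line marks equal means. SI and SU lie 1.48 and 2.02 above it, and BI lies with the uninjured arrays.

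The non-member genes whose pattern was most like the S-phase mean over the 17 arrays were Pdzk1ip1 (r = 0.974), Tnfrsf14, Dennd4a, Apobec3, Marchf2, Art4, Evi5 and Usp32 (0.968). None of the 8 was in a cell cycle list, and of the 50 most alike 2 were. Most like the mitotic mean were Pbk (0.986), Arhgap19, Cdkn2d, Neil3, Spc25, Prc1, Dbf4 and Asf1b (0.972), and 12 of the 50 most alike were in a cell cycle list.

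No difference between the populations passed the test. In mSSC against mBCSP no member passed the test (smallest adjusted p = 0.431), nor did any of the 14504 genes (0%, with 1401 at an unadjusted p under 0.05). The S-phase genes were lower in mSSCs for 16 of 17, with a median of -0.35, and the mitotic genes higher for 18 of 22, with a median of 0.16. E2f1 had the largest S-phase difference (-0.75, SE 0.27) and Bub1 had 0.41 (SE 0.18), with 95% intervals of -1.35 to -0.14 and 0.02 to 0.79. The largest differences were those of the word arrays, where all 17 genes were lower in SI than in BI (median -2.12) and in SU than in BU (-1.16). In the other 6 pairs the S-phase median was -0.06 to 0.40. OIS was above OIB for all 39 members (medians 0.40 and 0.67), beside a pan-leukocyte mean of 12.24 on OIS and 10.65 on OIB.

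Ovary state moved no member past the test in callus. With the title form as a term the fold changes rest on the 6 two-letter arrays, 1 mSSC and 1 mBCSP array per state. The spread behind the p-values is that of the fit of all 17 arrays, so it also comes from arrays outside these comparisons. OVX + E2 against OVX and OVX against sham share the OVX arrays. In OVX + E2 against OVX callus 3 of 14504 genes were called (0.0207%, with 332 at an unadjusted p under 0.05), in OVX + E2 against sham callus also 3 (0.0207%, with 359) and in OVX against sham callus 0 (0%, with 293), with no member among them (adjusted p = 1 for each). The median of the 22 mitotic genes was 0.28 in OVX + E2 against OVX callus, 0.13 in OVX + E2 against sham callus and -0.19 in OVX against sham callus. Those of the 17 S-phase genes were -0.02, -0.01 and -0.01, and those of all tested genes 0.02, -0.00 and -0.02.

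Plk1 was the member of smallest p in both callus comparisons with OVX. Its log2 signal was 10.40 and 10.42 on the OVX + E2 arrays ES and EB, 9.59 and 9.74 on the OVX arrays OS and OB, and 10.27 and 10.09 on the sham arrays SS and SB. Both OVX arrays lay below all 4 others. Plk1 was picked by its p, and this parting was not set against all tested genes. The log2 fold change was 0.74 (SE 0.23, 95% interval 0.23 to 1.26) in OVX + E2 against OVX and -0.52 (SE 0.23, -1.03 to -0.00) in OVX against sham callus, neither called. Cenpa, the centromeric histone, had 0.54 and -0.48 and Cdc20, the activator of the anaphase ligase, 0.57 and -0.46. Between single arrays 21 of 22 mitotic genes were higher in ES than in OS (median 0.39) and 15 of 22 in EB than in OB (0.20), 14 of them in both. Of the S-phase genes 11 of 17 and 8 of 17 were higher (0.08 and -0.01), 6 in both. In OS against SS 15 of 22 mitotic genes were lower (median -0.23), and in OB against SB 14 (-0.19), 11 of them in both.

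**Figure D5:**
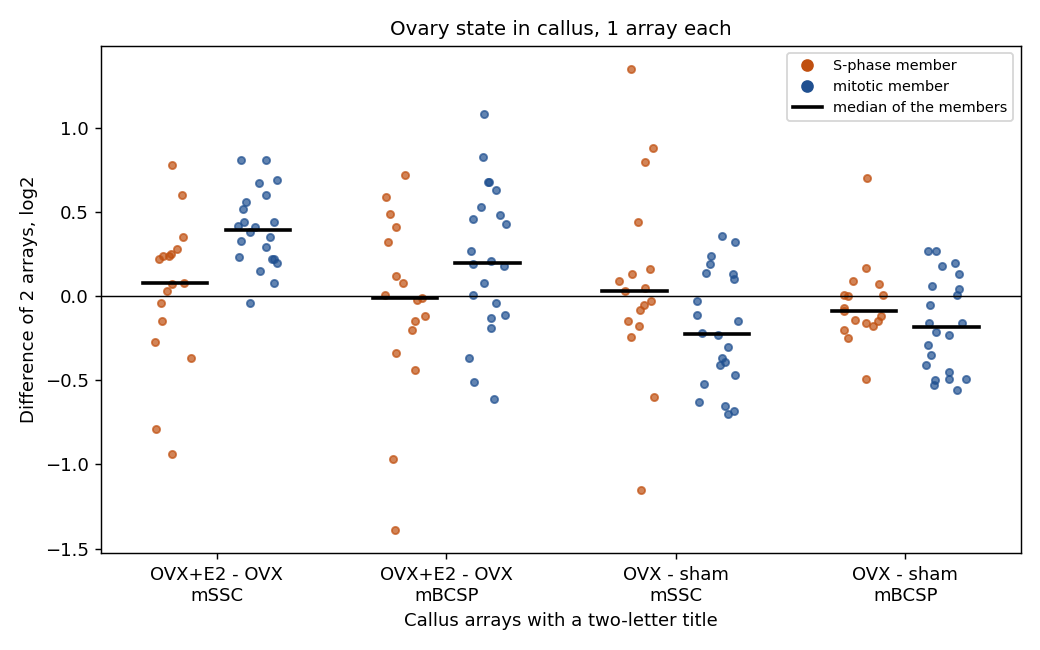
Difference in log2 signal between 2 callus arrays of two-letter titles for each member, 1 point a gene, S-phase in orange and mitotic in blue, with the median as a bar. The mitotic medians are 0.39 and 0.20 in OVX + E2 minus OVX and -0.23 and -0.19 in OVX minus sham, and the S-phase medians lie between -0.09 and 0.08.

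Within each population leukocyte signal and the mitotic mean were both highest in OVX + E2 and lowest in OVX callus. The pan-leukocyte mean was 10.60 and 9.38 on the OVX + E2 arrays ES and EB, 8.69 and 7.94 on the OVX arrays OS and OB, and 9.17 and 8.57 on the sham arrays SS and SB, and the mitotic mean was 10.62 and 10.40, 10.23 and 10.18, and 10.43 and 10.35. Over these 6 arrays the mitotic mean had a Pearson r of 0.95 (Spearman 0.89) with the pan-leukocyte mean and 0.92 (0.94) with the neutrophil mean, and the S-phase mean had -0.04 (-0.26) and -0.01 (-0.31). The S-phase mean spanned only 9.99 to 10.13. Ptprc was at 10.62 on ES and at 6.58 to 8.80 on the other 5. The part of leukocyte signal in the mitotic values was not tested.

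The callus arrays of conflicting labels lay above sham callus of the same title form for most S-phase genes. OIS exceeded SIS with medians of 1.03 (S-phase, 15 of 17 higher) and 0.71 (mitotic, 21 of 22), and OIB against SIB had medians of 0.41 (15 of 17 higher) and -0.11 (8 of 22). Their erythroid means were 11.89 on OIS and 10.58 on OIB, against 9.33 on SIS and 9.16 on SIB, and the pan-leukocyte means 12.24 and 10.65, against 9.47 and 9.53. With both placed as OVX, OVX against sham callus had no called member (0.0138% of the tested genes), and with both placed as sham it had none either (0%).

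In uninjured bone, OVX against sham, 0.145% of the tested genes were called and no member was (smallest adjusted p = 0.475). With the title form as a term the fold changes rest on a single sham array, SUS, as SU and BU have word titles. The spread behind the p-values is that of the fit of all 17 arrays. The mitotic genes had a median of -0.31 and were lower for 18 of 22, led by Cdk1 (-0.87, SE 0.32, 95% interval -1.57 to -0.17). Cdk1 was at 11.64 and 11.34 on OUS and OUB, against 12.49, 13.31 and 12.90 on SUS, SU and BU. Both OVX arrays lay below all 3 sham arrays, of which only SUS shares their title form. Cdk1 was picked as the leading member, and this parting was not set against all tested genes. The S-phase genes had a median of -0.18, with 11 of 17 lower, but of -0.67 without OUS and 0.08 without OUB. Between OUS and SUS, of 1 population and title form, the medians were 0.08 (S-phase) and -0.32 (mitotic), beside pan-leukocyte means of 12.98 and 13.42.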

How the data were processed

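Sorted mSSCs and mBCSPs were profiled on 17 Affymetrix mouse arrays, 1 array a sample. The values the authors deposited are log2 signals of 45101 probe sets, already summarised and normalized. The processing notes name MAS5 and the methods name dChip with Gene Expression Commons, and which of these made the deposited values is not settled. They were converted to linear signal, quantile normalized over 17 arrays, set to at least the 20th percentile (log2 5.95) and converted back. Of the probe sets 34945 had 1 symbol, 932 several, 9160 none and 64 were controls. By gene identifier 34741 of those with 1 symbol matched GRCm38.p6 and 204 did not. Each gene was read by its probe set of highest mean, and 14504 genes whose signal reached the 40th percentile of 2 or more arrays entered the tests. Promoter windows came from the RefSeq table of that build, the first listed for each gene.

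Tests used limma 3.58.1 in R 4.3.3 with Benjamini-Hochberg adjustment over all tested genes. Injury was fitted in 11 arrays with population and title form as terms and the preparation (group and title form) as a random block. Ovary state and population were fitted in 17 arrays with group, population and title form. These fits left 7 residual degrees of freedom, and those of a difference in injury response 6. Simulated data were used to test only callus against uninjured, OVX + E2 against OVX callus and mSSC against mBCSP. The number of arrays limits the precision. Alternatives changed the normalization, floor, filter, probe set rule, block, arrays and blood covariates.

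Values by array are given for the 3 S-phase and 3 mitotic members of smallest p in the injury test and for Mki67, Pcna, Mcm2 and Top2a. Genes of other lists were taken by p, up to 6 called a list, and blood genes by signal. E2f5, Ccnd1 and the called CDK inhibitor and quiescence genes beyond 6 were named after their values were seen. The members and lists were chosen with earlier results of these data known.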

Additional observations from a re-analysis of the deposited data

Results flagged for a closer look

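In the 4 sham callus arrays 3 members had 1 array far from the others by the ratio of its gap to the whole range, which chance flags in about 1 in 20 groups. For Mcm7 the ratio was 0.901, with SIS at 11.18 and SB, SS and SIB at 11.51, 11.53 and 11.49. For Gmnn it was 0.914, with SIB at 8.54 and SB, SS and SIS at 9.14, 9.09 and 9.13. For Tpx2 it was 0.904, with SIS at 10.43 and SB, SS and SIB at 10.78, 10.80 and 10.82. The low array was of the three-letter set each time.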

How the results depend on the processing

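The 28 members called lower in callus were 21 to 34 under the other settings of normalization, floor, filter, probe set rule, trend, block and title form. In the main fit 12.3% of the tested genes were called lower. The range of 21 to 34 was not set against all tested genes. Leaving out 1 array gave 9 (without SI) to 32 (without BI), with 16 without SUS, and 2118 to 4604 called genes in all. The word arrays alone called 1 member lower (1154 genes in either direction, 419 of them lower) and the mBCSP arrays 0 (0 genes). Sham arrays in the 17-array fit, in effect SIB and SIS against SUS, had medians of -1.97 (S-phase) and -1.80 (mitotic). With the mean of all blood genes as a covariate 2 members were called lower, and 1142 genes in either direction, 367 of them lower. The medians were -0.16 and -0.83, with Mcm2 at 0.06. Covariates of single blood lists were added after seeing the data, and their gene counts take in both directions. The neutrophil mean gave 2 members, 624 genes and medians of -0.25 and -0.84. The macrophage mean gave 0 members, 3 genes, an S-phase median of -0.11, Pcna at 0.26 and Mcm2 at 0.28. The B cell mean gave 5 members, 2243 genes and an S-phase median of -0.43, and the platelet mean 5 members and 2356 genes. The pan-leukocyte mean gave 0 members, 4 genes, medians of -0.01 and -0.57, Mki67 at 0.31 and Pcna at 0.29. The cause of these changes was not tested.

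Injury by population had an S-phase median of -0.67 to 0.60 with 1 array left out (0.43 without SI, 0.60 without BI). Injury by title form called 0 to 18 members, with S-phase medians of 0.07 (without BI) to 1.63 (without SI) and mitotic medians of -0.12 to 0.75. It called 18 members without OIS (37.5% of the tested genes), 7 without SIB and 1 without OIB. The counts of 7 and 1 were not set against all tested genes. Its mitotic median was -0.12 without quantile normalization and -0.21 with median centring, and its S-phase median 0.16 with the blood mean. OVX against sham uninjured bone without the title form term called 2 members, a count not set against all tested genes, with a mitotic median of -0.66. OVX against sham uninjured bone had an S-phase median of -0.67 (without OUS) to 0.08 (without OUB). The labels carry no replicate numbers. With the mSSC and mBCSP array of a preparation paired as a block in 16 arrays, mSSC against mBCSP again had 0 called members, with medians of -0.35 and 0.16.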
